A study of Mus musculus with 6 samples.

Results

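The comparison described here is between AE9a leukemia cells of the mouse given CBD at 15 µM for 16 h and untreated leukemia cells of the same genotype, read gene by gene from RNA sequencing. Its core is the 5922 genes that stood at 10 FPKM or more (fragments per kilobase of transcript, scaled to the mapped reads) in this comparison's control column and in the control column of a second table, and whose test status was OK. They were drawn from 13751 genes tested with CBD and from 21881 genes listed. A further 180 genes passed the same minimum in both control columns but were not tested. Another 2211 tested genes stood under 0.1 FPKM in both control columns, and they are described apart.

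The study has 6 samples in 3 groups of 2: control cells, cells with CBD at 15 µM for 16 h, and cells with 4-hydroxytamoxifen (4-OHT) at 0.1 µM for 48 h. The cells came from C57/B6X129SV mice, and all 3 groups carried AE9a, loxP-flanked Id1 and the Cre-estrogen receptor fusion CreER. AE9a is a truncated AML1-ETO fusion protein that drives leukemia in mice. 4-OHT activates CreER, which deletes loxP-flanked DNA, and the series text describes CBD as an Id1 inhibitor. No vehicle is named for the controls. One control sample is described with the CBD table and the other with the 4-OHT table, and nothing in the labels says whether each control column holds 1 library or both. Whether both samples of a group came from separate mice or cultures is not stated.

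Id1 is a helix-loop-helix protein without a DNA-binding region. It pairs with E proteins and keeps them from binding the E-box sequences of their target genes, and it is known for being high in immature and dividing cells. Genes of DNA replication and mitosis are expressed in dividing cells, while lysosomal and antioxidant genes respond to stress on membranes, organelles and redox balance.

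Each column holds 1 FPKM value per group, so no SD, n or test could be computed from the values, and the depth behind them is unknown. "Rose" and "fell" are used only for genes whose Cuffdiff q, as the authors' deposited table gives it for this comparison, is under 0.05. A fold is log2((FPKM with CBD + 0.1) / (FPKM in its own control + 0.1)). The control column of the 4-OHT table, made and normalised separately, served as a yardstick: over the 5922 genes the absolute log2 difference between the control columns had a median of 0.31.

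Among the 5922 genes 674 rose (11.4%) and 882 fell (14.9%). Over all 13751 tested genes the shares were 18.4% and 7.74%, so the expressed genes held 82.8% of all falls and 26.6% of all rises. The median log2 fold was 0.01, with 25% of the genes below −0.44 and 25% above 0.41. The lowest 5% lay below −1.34 and the highest 5% above 0.97. Falls were the larger changes: 499 genes fell and 224 rose by at least 2-fold, and 55 fell and 22 rose by at least 4-fold. The absolute log2 fold had a median of 0.43 with CBD, against 0.14 with 4-OHT over its own control. With 4-OHT, 25.6% of these genes rose and 21.9% fell by the q of its own table, but only 31 of those called had a fold of 2 or more.

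Of the 674 genes that rose with CBD, 648 were also above the other control column, and of the 882 that fell, 833 were also below it. In 500 of the risen and 738 of the fallen genes the CBD value lay beyond both controls by more than the controls differed. Here the smaller of the log2 folds over either control exceeded the absolute log2 difference between the control columns of that gene. Nearest the 10 FPKM limit on the inside were Ogg1, Nfrkb and Uap1l1, with 18.1, 11.6 and 21.7 FPKM in control and 17.7, 5.31 and 58.6 FPKM with CBD. Just outside were Ralgapa1, Pla2g6 and Arhgef7, with 10.2, 9.99 and 9.98 FPKM in control and 9.31, 6.84 and 9.72 FPKM with CBD.

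**Figure D1:**
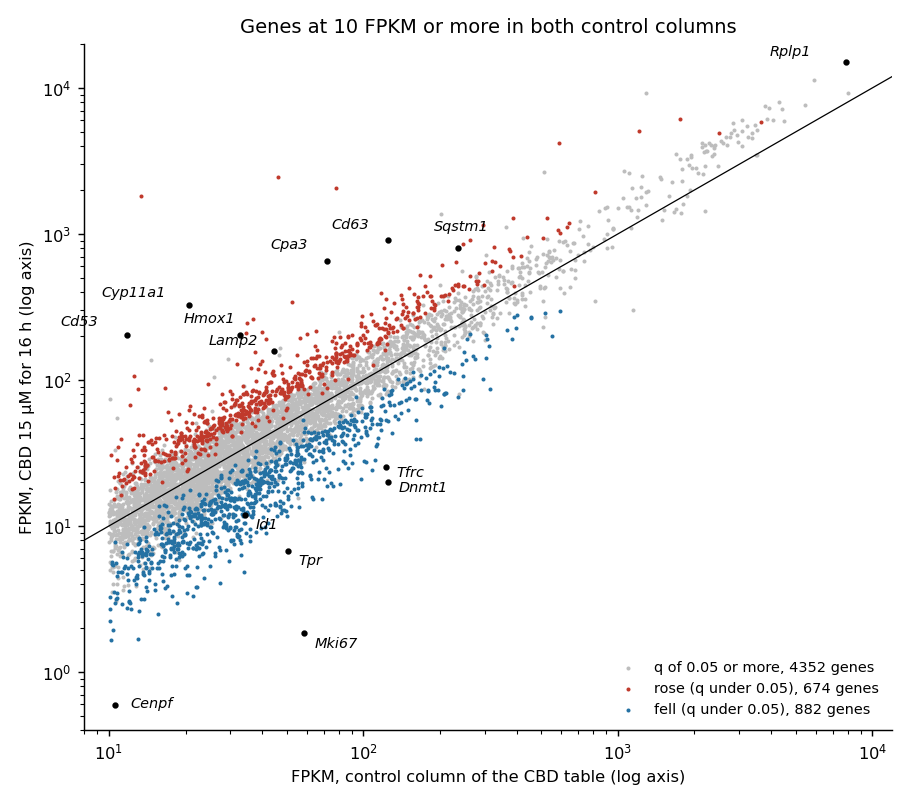
FPKM with CBD (vertical, log axis) against FPKM in its own control (horizontal, log axis) for the 5922 expressed genes; red genes rose, blue genes fell, black points are named genes and the line marks equal values. The 14 genes listed at 0 with CBD are not drawn; Mki67 and Cenpf lie farthest below the line.

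Id1 itself stood at 34.2 FPKM in control and 11.95 FPKM with CBD, against 15.4 FPKM in the other control column and 0.741 FPKM with 4-OHT. Its log2 fold was −1.51 over its own control and −0.37 over the other control, and its q was 0.133 in the authors' deposited table. The level with CBD was below both control columns, and the call was not made. The value with 4-OHT is what checks the deletion.

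A few facts about the libraries bear on the results that follow. Kit, Gata2, Myb, Runx1, Csf2rb, Lyl1 and Tal1 were above 20 FPKM in every column, while Ptprc (CD45), Mpo and Cebpa were under 0.2 FPKM in both control columns, so several genes that usually define myeloid blasts were near 0. Brain genes were found with CBD. The summed level of 14 neuron markers was 21.9 FPKM in control (20.5 of it Tubb3), 224 FPKM with CBD, 9.96 FPKM in the other control and 9.35 FPKM with 4-OHT, and 13 of the 14 rose. The 10 oligodendrocyte markers summed to 49.0, 255, 48.9 and 46.7 FPKM in the same order, and 8 rose, and the 10 astrocyte markers summed to 17.4, 147, 7.61 and 11.8 FPKM, and 9 rose. The 4 Y-linked genes summed to 0.0393 FPKM in control and 1.97 FPKM with CBD, and 3 rose. In control, most of these markers were at or near 0: Snap25 was at 0.0697 FPKM and Slc1a2 at 0.0594 FPKM, and Mog and Rbfox3 were listed at 0. The highest of all the listed brain markers with CBD was Mbp, at 118 FPKM from 38.6 FPKM in control. The 674 expressed genes that rose did so by a median of 37.1 FPKM. What part brain RNA has in the rises below was not tested, and these values do not measure it.

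**Figure D2:**
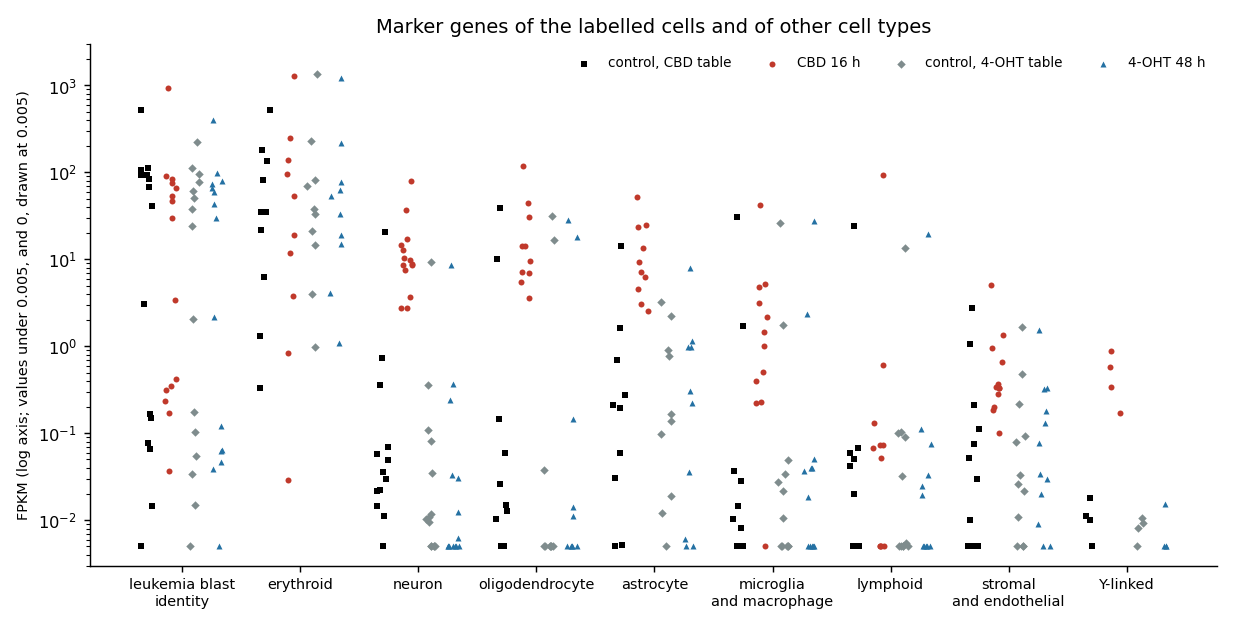
FPKM (log axis) of the marker genes of the labelled cells and of other cell types, each point 1 gene in 1 of the 4 columns; values under 0.005 are drawn at 0.005. Neuron, oligodendrocyte and astrocyte markers sit higher with CBD (red) than in the other 3 columns.

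Transcript length also moved with the fold. Over the 5861 genes with a length, Spearman's rho between fold and the longest annotated transcript was −0.42 (genes share the same libraries, so this is a description), −0.32 over the other control column, 0.03 for the difference between the control columns and −0.06 for 4-OHT. Among the 25% of genes with the shortest transcripts (66 to 1952 bp) 278 genes rose and 41 fell, with a median log2 fold of 0.35. Among the 25% with the longest (4375 to 123179 bp) 75 rose and 499 fell, with a median of −0.37. The part of length in the results was not tested. For most groups below a length-adjusted median is also given, in which the median fold of genes of like length has been subtracted.

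**Figure D3:**
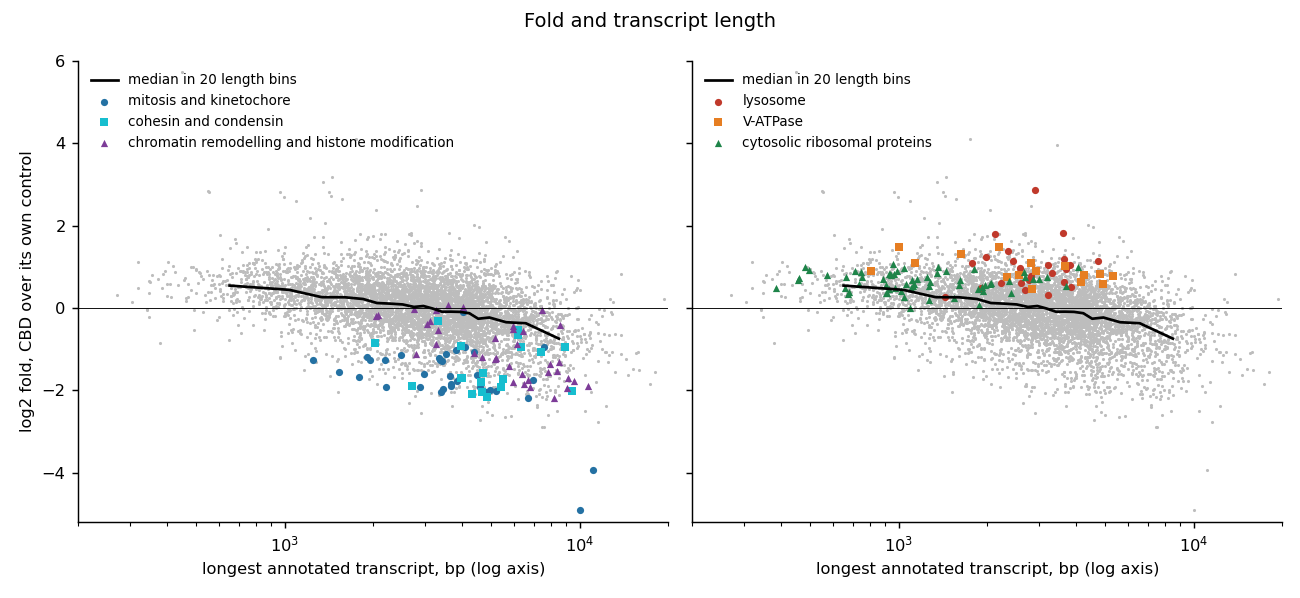
Log2 fold of CBD over its own control against the longest annotated transcript in bp (log axis), with the median in 20 length bins as a line and 3 gene lists marked in each panel. The line falls from short to long transcripts; mitosis genes lie below it and lysosome and V-ATPase genes above it along much of its length. Members listed at 0 with CBD, without a length or beyond the axes are not drawn.

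Mitosis genes fell in the largest share of the 47 lists with at least 3 expressed members. Of 34 listed genes of mitosis and the kinetochore, the protein complex that ties chromosomes to the spindle, 32 fell and none rose, and all 34 folds were below 0. The median log2 fold was −1.65 over either control column and −1.61 with length adjusted, against 0.01 over all 5922 genes. Of the 10 members with transcripts no longer than the median of all expressed genes, 9 fell. Summed over the list, the level was 2162 FPKM in control, 818 FPKM with CBD, 2428 FPKM in the other control and 2650 FPKM with 4-OHT. With 4-OHT 19 of the 34 rose and none fell, at a median log2 fold of 0.17. Over all expressed genes 25.6% rose and 21.9% fell with 4-OHT.

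Mki67, which encodes the proliferation marker Ki-67 that coats mitotic chromosomes, had the lowest fold of all called genes. It stood at 58.3 FPKM in control, 1.84 FPKM with CBD, 68.8 FPKM in the other control and 88.6 FPKM with 4-OHT, a log2 fold of −4.91. Cenpf, a kinetochore protein, was at 10.6, 0.594, 10.4 and 12.1 FPKM in the same order (log2 fold −3.94). In both genes the CBD column stood alone below 3 columns that were close to each other. Espl1, the separase that cuts cohesin at anaphase, went from 35.8 to 7.83 FPKM, with 36.8 FPKM in the other control. Kif23, a kinesin of cytokinesis, went from 37.9 to 9.08 FPKM, with 21.8 FPKM in the other control. Further members of the 15 lowest folds act in the same process: the kinesins Kif20b (21.4 to 3.33 FPKM) and Kif15 (20.4 to 3.48 FPKM), the kinetochore scaffold Casc5 (18.5 to 2.99 FPKM) and the spindle pole protein Numa1 (23.7 to 4.44 FPKM). Birc5 (survivin), which serves both in the chromosomal passenger complex and as an inhibitor of apoptosis, fell from 116 to 49.7 FPKM, with 205 FPKM in the other control.

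Promoters of 3 mitosis genes are shown because the lowest folds lie here. Promoters were taken from RefSeq (GRCm38.p6), from 250 bases before to 50 after the start site, and 4748 of the 5922 genes (80.2%) matched an entry. The letters TTTGAA, the core of the cell cycle homology region (CHR), were searched on both strands. They were in 24 of 30 mitosis promoters (80.0%), in 14.3% of promoters of expressed genes and in 20.2% of all 27025 genes' promoters. In the replication list they were in 5 of 30 promoters (16.7%). Each line gives 120 bases 5′ to 3′ on the gene's strand, and capitals mark TTTGAA.
Mki67 chr7:135716433-135716552, minus strand: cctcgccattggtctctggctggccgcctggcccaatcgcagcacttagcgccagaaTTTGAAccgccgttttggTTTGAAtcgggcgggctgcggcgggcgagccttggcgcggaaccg
Cenpf chr1:189688057-189688176, minus strand: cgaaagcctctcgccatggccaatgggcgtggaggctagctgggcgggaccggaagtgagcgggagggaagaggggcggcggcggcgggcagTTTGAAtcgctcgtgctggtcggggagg
Espl1 chr15:102296203-102296322, plus strand: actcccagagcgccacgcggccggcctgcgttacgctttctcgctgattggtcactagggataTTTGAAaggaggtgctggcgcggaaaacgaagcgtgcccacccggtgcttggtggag

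The CCAAT box, which often stands beside a CHR, was in 83.3% of the mitosis promoters, in 43.4% of those of expressed genes and in 41.1% of all. Of the 358 expressed genes whose promoter held both TTTGAA and CCAAT, 101 fell (28.2%), against 14.1% of the 4390 without both. Outside the mitosis list, 80 of 336 such genes fell (23.8%). Other cell cycle lists were not taken out, so this does not part the letters from cell cycle genes. In the cohesin and condensin list, described next, TTTGAA was in 7 of 14 promoters (50%). A match describes these letters only and does not show that a factor binds. In all 19 motifs were searched, and those reported were chosen after their shares were seen.

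Cohesin and condensin, the ring complexes that hold sister chromatids together and compact chromosomes, fell next: 16 of 19 genes fell and none rose, with a median log2 fold of −1.70, or −1.34 with length adjusted. All but 2 of these genes have transcripts longer than the median. Smc3, a core arm of the cohesin ring, stood at 68.6 FPKM in control, 15.3 FPKM with CBD, 59.9 FPKM in the other control and 63.7 FPKM with 4-OHT. Smc4, the matching arm of condensin, was at 167, 39.3, 114 and 143 FPKM. Nipbl, which loads cohesin onto DNA, went from 42.3 to 10.4 FPKM, and the condensin II subunit gene Ncapg2 from 32.9 to 7.98 FPKM. In these 4 genes the CBD value was the lowest of the 4 columns by a wide margin. Of 20 genes of tubulin and the centrosome 9 fell and none rose (median −0.87, −0.52 with length adjusted, −0.44 with the minimum level raised to 20 FPKM). Among them the microtubule polymerase Ckap5 fell from 36.4 to 11.5 FPKM, Tacc3 from 55.4 to 19.6 FPKM and the dynein heavy chain Dync1h1 from 32.2 to 13.6 FPKM.

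DNA replication genes fell together. In the list of replication and licensing 23 of 37 genes fell and none rose, and the median log2 fold was −1.01 over the own control, −1.07 over the other control and −1.10 with length adjusted. Dnmt1, which copies DNA methylation to the new strand, had the largest fold: 125 FPKM in control, 20.1 FPKM with CBD, 107 FPKM in the other control and 130 FPKM with 4-OHT. Pole, the catalytic subunit of the leading-strand polymerase, went from 29.5 to 5.72 FPKM. Chaf1a, which places histones on new DNA, went from 40.9 to 9.86 FPKM, and Rfc1, part of the clamp loader, from 32.1 to 8.44 FPKM. Clspn, which signals stalled forks to the checkpoint, was among the 15 lowest folds, at 15.7 FPKM in control and 2.49 FPKM with CBD. With 4-OHT 7 of the 37 rose and 5 fell, where 25.6% of all expressed genes rose and 21.9% fell.

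The letters TTTGGCGC, a form of the E2F site that E2F factors use at S-phase genes, were in 7 of 30 replication promoters (23.3%), in 1.46% of promoters of expressed genes and in 0.585% of all. Of 69 expressed genes with it 25 fell (36.2%), against 14.8% of the 4679 without. The 69 include the 7 of the replication list, which were not set apart, so this share is not independent of the falls in that list. Promoters of 2 of the 7 are shown, and capitals mark the site on either strand. Pola1 encodes the polymerase that starts new strands and fell from 32.1 to 10.9 FPKM. Mcm6, part of the replicative helicase, fell from 178 to 72.4 FPKM.
Pola1 chrX:93632231-93632350, minus strand: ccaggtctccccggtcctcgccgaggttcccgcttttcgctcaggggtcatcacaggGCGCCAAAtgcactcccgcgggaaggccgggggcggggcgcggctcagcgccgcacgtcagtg
Mcm6 chr1:128359753-128359872, minus strand: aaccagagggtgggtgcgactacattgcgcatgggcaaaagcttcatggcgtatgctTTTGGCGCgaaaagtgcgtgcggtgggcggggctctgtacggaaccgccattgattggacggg

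Supply of deoxynucleotides followed in part. Of 24 genes of nucleotide synthesis 7 fell and 1 rose. Rrm2, the regulatory subunit of ribonucleotide reductase, stood at 130 FPKM in control, 43.4 FPKM with CBD, 172 FPKM in the other control and 189 FPKM with 4-OHT. Its partner Rrm1 went from 108 to 50.1 FPKM, and the thymidine kinase gene Tk1 from 95.4 to 37.1 FPKM. The gene that rose was Nme2, a nucleoside diphosphate kinase, from 506 to 935 FPKM. The median of the list was −0.50 over the own control, −1.002 over the other and −0.47 with length adjusted.

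Regulators of the G1 phase were mixed: 7 of 24 fell and 2 rose (median −0.46, adjusted −0.51). E2f8, a repressor of the E2F family, fell from 33.0 to 6.31 FPKM, with 33.7 FPKM in the other control. The phosphatases that activate cyclin-dependent kinases fell as well, Cdc25b from 103 to 42.3 FPKM and Cdc25a from 24.4 to 10.5 FPKM. Cdkn2a, whose products p16 and p19 hold back the cycle and MDM2, rose from 223 to 430 FPKM, with 150 FPKM in the other control. Among 10 genes of the p53 pathway 4 rose (40%) and 1 fell (10%), beside 11.4% and 14.9% of all expressed genes. Cdkn1a (p21), which blocks cyclin-dependent kinases, rose from 50.3 to 83.0 FPKM, but the other control stood at 14.2 FPKM, so the control columns differed by more than the rise. Bax, which permeabilises mitochondria, rose from 81.7 to 169 FPKM, with 108 FPKM in the other control. Of 16 BCL2 family and caspase genes it alone rose (6.25%) and 1 fell (6.25%), both under the shares of all expressed genes.

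DNA repair genes were all below 0: 11 of 24 fell, none rose, and the median log2 fold was −0.81, or −0.72 with length adjusted. The 11 were all among the 18 with transcripts longer than the median, and none of the 6 shorter ones fell. Brca1, which serves in homologous recombination, went from 13.7 to 3.14 FPKM, and its partner Bard1 from 10.8 to 3.48 FPKM. Rad50, part of the complex that senses double-strand breaks, went from 32.4 to 8.50 FPKM.

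Chromatin regulators fell in number, 23 of 37, and none rose. The median log2 fold was −1.13, or −0.81 with length adjusted. Of the 5 with shorter transcripts 1 fell, and of the 32 with longer ones 22 fell. Arid1a, a subunit of the SWI/SNF remodeller, stood at 41.5 FPKM in control, 9.01 FPKM with CBD, 38.7 FPKM in the other control and 35.9 FPKM with 4-OHT. Ncor1, a corepressor that AML1-ETO proteins are known to recruit, was at 34.7, 9.01, 29.6 and 33.4 FPKM. Dot1l, the histone H3 lysine 79 methyltransferase, went from 15.2 to 3.99 FPKM, and Ep400 from 27.1 to 7.18 FPKM. The CBD value of each was far below the 3 other columns, which lay close together.

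Nuclear pore and transport genes fell in 19 of 30 cases, with none risen, a median of −0.86 and an adjusted median of −0.62. Tpr, the filament of the nuclear basket, had the largest fold, at 50.4 FPKM in control, 6.76 FPKM with CBD, 64.8 FPKM in the other control and 66.4 FPKM with 4-OHT. Nup214 went from 19.8 to 6.47 FPKM and Nup188 from 49.4 to 21.3 FPKM. Splicing factors fell in 15 of 40 cases with none risen (median −0.50, adjusted −0.55), and 3 of the 15 were among the 19 members with shorter transcripts. Over the other control the median was −0.85. Hnrnpu went from 245 to 85.5 FPKM and Hnrnpa1 from 208 to 80.2 FPKM.

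**Figure D4:**
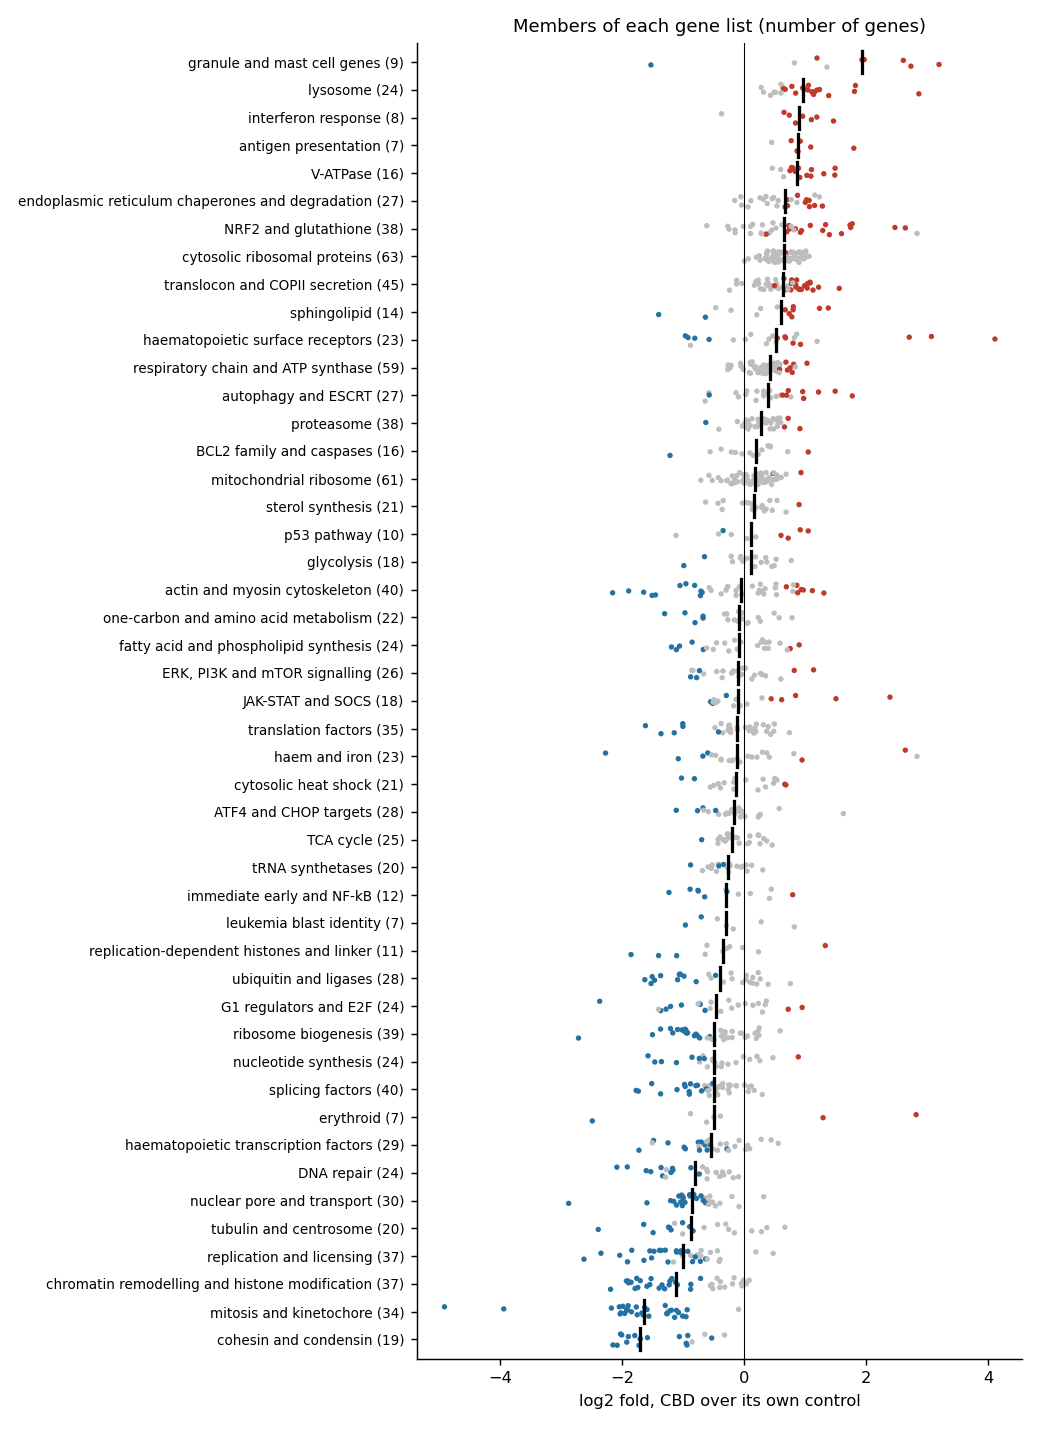
Log2 fold of CBD over its own control for every expressed member of each gene list (number of members in brackets), with red for genes that rose, blue for genes that fell, grey for the rest and a black bar for the median. Cohesin, mitosis, chromatin and replication genes lie lowest, at medians of −1.70, −1.65, −1.13 and −1.01; lysosome and V-ATPase genes lie near the top, at 0.97 and 0.86.

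Genes of the machinery that makes ribosomes fell in part. Of 39 ribosome biogenesis genes 17 fell and none rose, at a median log2 fold of −0.49 over the own control, −1.01 over the other control and −0.48 with length adjusted. Of 22 with shorter transcripts 3 fell, and of 17 with longer ones 14 fell. Tcof1 (treacle), which helps RNA polymerase I transcribe ribosomal DNA, was at 27.3 FPKM in control, 4.06 FPKM with CBD, 29.98 FPKM in the other control and 31.1 FPKM with 4-OHT. Polr1a, the largest subunit of that polymerase, went from 40.01 to 14.03 FPKM, and the nucleolar helicase gene Ddx21 from 123 to 52.98 FPKM.

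Cytosolic ribosomal protein genes were higher with CBD in 63 of 63 cases, with a median log2 fold of 0.65 that shrank to 0.29 with length adjusted. Only Rpl38 passed the q threshold (3668 to 5877 FPKM). Their sum was 151306 FPKM in control, 243524 FPKM with CBD, 118906 FPKM in the other control and 127490 FPKM with 4-OHT. The 5 most abundant genes of the control column, small RNAs apart, were all of this group. Rplp1 stood at 7913 FPKM in control and 15073 FPKM with CBD (log2 fold 0.93, q of 0.650 in the authors' deposited table). Genes of 500 FPKM or more were called in 8.77% of cases, against 21.7% to 29.6% in the lower ranges of expression. Ribosomal protein genes have many near-identical pseudogene copies, which the authors' counting could split.

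Among 35 translation factors 6 fell (17.1%, near the 14.9% of all expressed genes) and none rose. All 6 were among the 18 with longer transcripts, and 34.1% of the 25% of genes with the longest transcripts fell. Eif3a, the largest scaffold of eIF3, went from 203 to 65.8 FPKM and Eif5b, which joins the ribosomal subunits, from 37.6 to 14.6 FPKM. The median of the list was −0.12. Mitochondrial ribosomal proteins (61 genes, 2 rose, none fell) and subunits of the respiratory chain and ATP synthase (59 genes, 7 rose, none fell) had medians of 0.17 and 0.42, and of −0.02 and 0.01 with length adjusted. Over the other control the medians were −0.22 and 0.17. The shares that rose were 3.28% and 11.9%, beside 11.4% of all expressed genes. Among those that rose were the complex I subunits Ndufa1 (184 to 376 FPKM) and Ndufa6 (343 to 601 FPKM).

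Lysosomal genes rose as a group. Of 24 members 17 rose and none fell, and all 24 folds were above 0. The median log2 fold was 0.97, with 1.11 over the other control and 0.90 with length adjusted. The sum went from 1759 FPKM in control to 4150 FPKM with CBD, with 1952 FPKM in the other control and 1872 FPKM with 4-OHT. Cd63, a tetraspanin of late endosomes and granule membranes, stood at 125 FPKM in control, 908 FPKM with CBD, 275 FPKM in the other control and 200 FPKM with 4-OHT. Lamp2, a main protein of the lysosomal membrane, was at 44.7, 158, 59.0 and 57.8 FPKM. The protease gene Ctsd was at 261, 914, 394 and 312 FPKM, and Grn, the progranulin gene, at 44.1, 115, 25.9 and 32.9 FPKM. In all 4 the CBD column was the highest by far, while for Cd63 the control columns themselves differed by more than 2-fold. The summed neuron, oligodendrocyte and astrocyte markers given above moved the same way, and their part in this group was not tested.

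The V-ATPase, the proton pump that acidifies lysosomes, rose with them: 13 of 16 subunit genes rose and none fell (median 0.86, adjusted 0.88). Atp6v0b stood at 183 FPKM in control, 511 FPKM with CBD, 189 FPKM in the other control and 218 FPKM with 4-OHT. Atp6v0d1 was at 43.96, 109, 43.7 and 49.97 FPKM, and Atp6ap1 at 29.8, 83.9, 60.7 and 56.8 FPKM. Brain expresses this pump strongly, and that part was not tested. Of 27 genes of autophagy and ESCRT sorting 8 rose and 1 fell (median 0.38, adjusted 0.33). Sqstm1 (p62), the receptor that brings cargo to autophagosomes, was at 236 FPKM in control, 805 FPKM with CBD, 126 FPKM in the other control and 114 FPKM with 4-OHT. Of the genes for ubiquitin-like proteins that coat autophagosomes, Gabarap rose from 152 to 426 FPKM, Gabarapl1 from 36.3 to 84.6 FPKM and Gabarapl2 from 77.8 to 153 FPKM. Hgs, an ESCRT-0 subunit, was the gene that fell, from 26.4 to 17.7 FPKM.

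The letters CACGTGAC, a core of the CLEAR element known from lysosomal genes and bound by TFEB-type factors, were in 5 of 18 lysosomal promoters (27.8%), in 5.45% of promoters of expressed genes and in 2.55% of all. Among the 258 expressed genes with it 13.6% rose, against 11.4% of those without. Promoters of 2 lysosomal genes are shown, with capitals at the site on either strand. Ctsa, a carboxypeptidase that protects other lysosomal enzymes, rose from 27.98 to 63.9 FPKM.
Ctsd chr7:142387958-142388077, minus strand: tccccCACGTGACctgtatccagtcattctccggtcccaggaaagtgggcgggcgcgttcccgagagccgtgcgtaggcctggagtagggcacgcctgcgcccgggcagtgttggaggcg
Ctsa chr2:164833683-164833802, plus strand: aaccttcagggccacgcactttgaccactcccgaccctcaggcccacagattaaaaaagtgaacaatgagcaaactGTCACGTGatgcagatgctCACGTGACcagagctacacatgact

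Antioxidant genes known as targets of NRF2, and those of glutathione, rose in 17 of 38 cases and fell in none. The median log2 fold was 0.66 over the own and 0.41 over the other control, and 0.61 with length adjusted. Hmox1, which breaks down haem, stood at 32.8 FPKM in control, 205 FPKM with CBD, 15.9 FPKM in the other control and 19.8 FPKM with 4-OHT. Srxn1, which repairs oxidised peroxiredoxins, was at 12.1, 67.7, 14.2 and 8.43 FPKM. Both stood several-fold above 3 columns that were low. Esd, a formylglutathione hydrolase, went from 39.96 to 134 FPKM, but the other control stood at 85.2 FPKM. Gclm, the modifier subunit of the enzyme that starts glutathione synthesis, rose from 388 to 1289 FPKM, with 556 FPKM in the other control. With 4-OHT 7 of the 38 rose and 16 fell, beside 25.6% and 21.9% of all expressed genes. The letters TGACNNNGC, the core of the antioxidant response element, were in 30.3% of 33 promoters of the list, in 30.6% of translocon and COPII promoters and in 17.6% of promoters of expressed genes.

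Secretory genes rose: 20 of 45 genes of the translocon and COPII coat, which carry proteins into and out of the endoplasmic reticulum, rose and none fell (median 0.63, adjusted 0.56, 0.39 over the other control). Ssr4, a subunit of the translocon-associated complex, stood at 122 FPKM in control, 360 FPKM with CBD, 183 FPKM in the other control and 185 FPKM with 4-OHT. Surf4, a cargo receptor, was at 110, 255, 105 and 98.6 FPKM, and Sec61g, a channel subunit, at 123, 268, 137 and 156 FPKM. Chaperones and degradation factors of the reticulum rose in 10 of 27 cases and fell in none (median 0.67, adjusted 0.62). Selk went from 44.7 to 109 FPKM, Pdia6, a disulfide isomerase, from 65.5 to 146 FPKM with 105 FPKM in the other control, and Edem2 from 24.3 to 50.9 FPKM.

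Targets of the stress factors ATF4 and CHOP were set by the choice of control. None of 28 rose and 4 fell over the own control, with a median log2 fold of −0.17, while the median over the other control was 1.13. The control columns themselves differed by a median of 1.24 in log2 for this list. Nupr1 was at 160 FPKM in control, 73.8 FPKM with CBD, 12.5 FPKM in the other control and 29.8 FPKM with 4-OHT. Ppp1r15a (GADD34), which reverses the block of translation, was at 92.1, 54.1, 15.4 and 21.96 FPKM. In both the CBD value lay between the control columns. Of 12 immediate early and NF-kB genes 6 fell and 1 rose. Their median was −0.29 over the own and 0.40 over the other control. Of the 6 that fell, 5 were also below the other control, and Ier2 was not. Ier2 was at 141, 59.7, 23.4 and 36.5 FPKM. Other genes with a fall over the own control and a CBD value above the other control were H1f0, the linker histone (314, 86.8, 75.9 and 146 FPKM), the non-coding Snhg1 (552, 199, 101 and 170 FPKM), Krt80 (48.5, 14.3, 11.1 and 25.5 FPKM) and Glcci1 (43.6, 17.3, 17.05 and 20.98 FPKM).

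**Figure D5:**
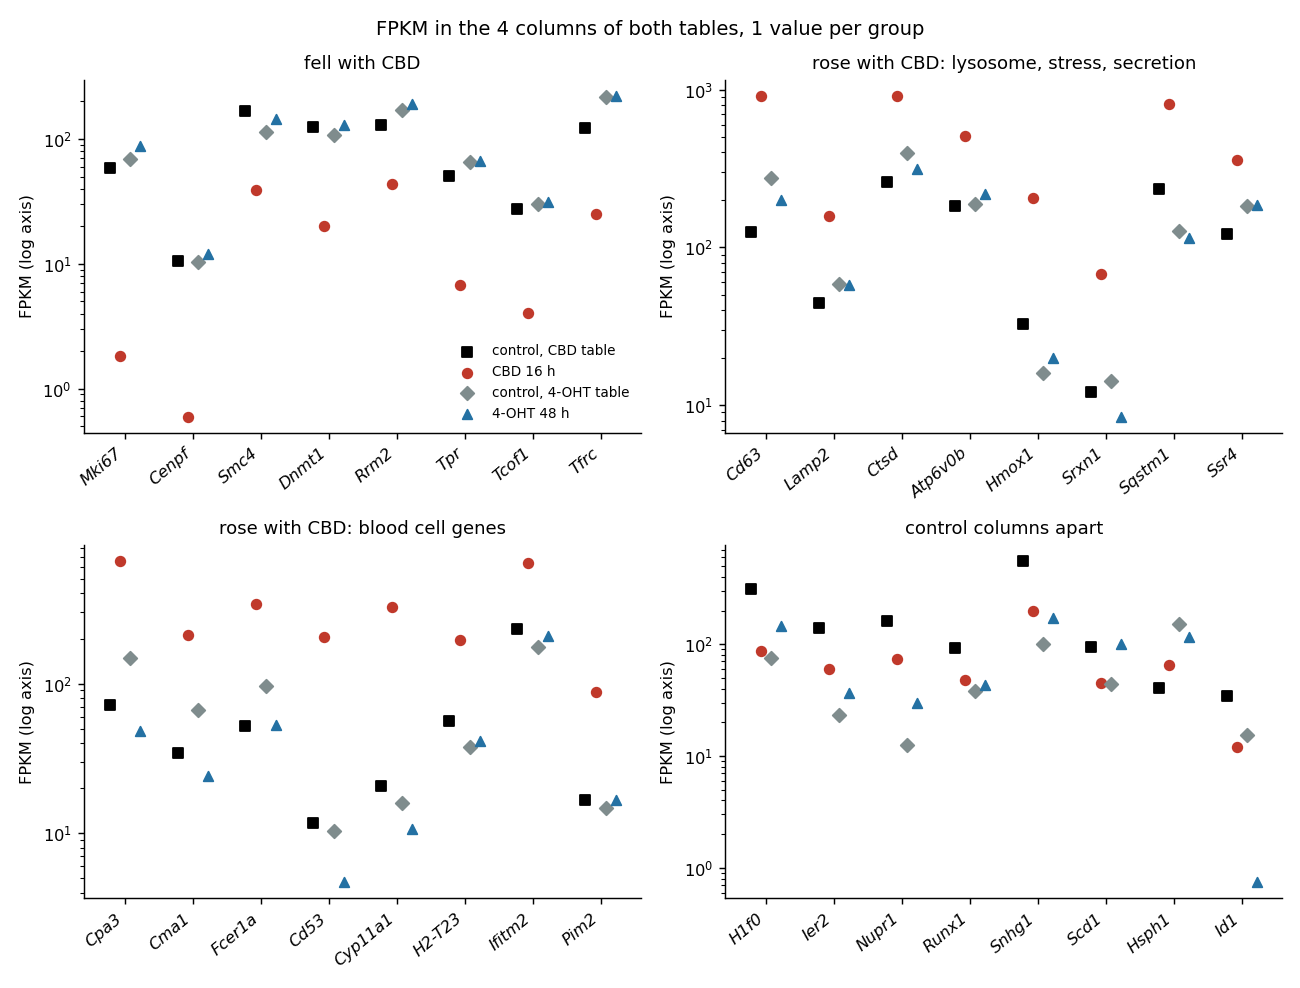
FPKM (log axis) of named genes in the 4 columns of both tables, 1 value per group, in 4 panels. In the first panel CBD is the lowest column for all 8 genes, in the panels of genes that rose it is the highest, and in the last, with Id1, the control columns lie apart from each other.

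The proteasome changed little: of 38 subunit genes 3 rose (7.89%) and 1 fell (2.63%). The median log2 fold was 0.28 over the own and −0.01 over the other control. Psmb8, an inducible subunit that shapes peptides for presentation, was among those that rose, from 69.5 to 131 FPKM with 31.5 FPKM in the other control. Ubiquitin ligases with very long transcripts fell, 12 of 28 genes in the list, and none rose. Huwe1 went from 29.3 to 9.41 FPKM and Ubr4 from 25.7 to 8.96 FPKM. The list median was −0.41, but −0.03 with length adjusted. Of 21 cytosolic heat shock genes 2 rose and 2 fell (9.52% each), beside 11.4% and 14.9% of all expressed genes. Hsph1, a chaperone of the HSP110 family, rose from 40.7 to 65.3 FPKM, with 153 FPKM in the other control, so its direction depends on the control.

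Lipid genes split. Of 14 sphingolipid genes 7 rose and 2 fell. Degs1, the desaturase that makes ceramide, stood at 37.9 FPKM in control, 98.5 FPKM with CBD, 37.4 FPKM in the other control and 35.8 FPKM with 4-OHT. The serine palmitoyltransferase subunit genes Sptlc1 and Sptlc2 went from 13.4 to 23.5 and from 23.4 to 40.8 FPKM. Smpd4, a sphingomyelinase, fell from 20.4 to 7.63 FPKM. Sterol synthesis gave 1 rise among 21 genes (4.76%), where 20 rose with 4-OHT. With 4-OHT 25.6% of all expressed genes rose and 21.9% fell. Of 24 genes of fatty acid and phospholipid synthesis 5 fell (20.8%) and 2 rose (8.33%), beside 14.9% and 11.4% of all expressed genes. The desaturase Scd1 fell from 94.5 to 45.2 FPKM, but the other control stood at 44.0 FPKM. Glycolysis gave 2 falls among 18 genes (11.1%), the hexokinases Hk2 (25.4 to 12.7 FPKM) and Hk1 (169 to 107 FPKM), where 17 rose with 4-OHT.

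Iron and haem genes gave 4 falls and 2 rises among 23 genes (17.4% and 8.70%), near the 14.9% and 11.4% of all expressed genes. Tfrc, the transferrin receptor that takes up iron, stood at 123 FPKM in control, 25.3 FPKM with CBD, 218 FPKM in the other control and 222 FPKM with 4-OHT. The haem synthesis gene Cpox fell from 189 to 89.4 FPKM. Hmox1, described above, was among the rises. Ftl2, a ferritin light chain copy outside the list, rose from 587 to 4202 FPKM, with 1073 FPKM in the other control, but its reads cannot be told from those of near-identical copies. Red cell genes did not move together: Hba-a2 rose from 34.9 to 246 FPKM, while Ank1 and Spnb1, which build the membrane skeleton, fell from 21.9 to 3.82 and from 22.1 to 3.84 FPKM. Hbb-b2 rose from 526 to 1287 FPKM, but the other control stood at 1348 FPKM, and both globin genes have near-identical copies. Gata1, Klf1 and Epor did not pass the threshold.

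Mast cell and granule genes rose in 6 of 9 cases and fell in 1, with a median log2 fold of 1.93. The median was 1.78 over the other control, 1.45 with length adjusted and 1.36 with the minimum level raised to 20 FPKM. Cpa3, the mast cell carboxypeptidase, stood at 71.9 FPKM in control, 658 FPKM with CBD, 148 FPKM in the other control and 48.2 FPKM with 4-OHT. The chymase gene Cma1 was at 34.5, 211, 66.3 and 24.2 FPKM, and granzyme B (Gzmb) at 13.0, 87.2, 25.3 and 10.05 FPKM. In these 3 the CBD column was highest, the other control came second and 4-OHT was lowest. Tph1, which starts serotonin synthesis, went from 295 to 1154 FPKM with 163 FPKM in the other control. The histidine decarboxylase gene Hdc went the other way, from 294 to 102 FPKM, with 128 FPKM in the other control.

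Surface receptors of blood cells held some of the largest rises, with 8 of 23 risen and 4 fallen. Their median log2 fold was 0.52 over the own control, 0.99 over the other and 0.42 with length adjusted. Cd53, a tetraspanin of leukocytes, stood at 11.7 FPKM in control, 204 FPKM with CBD, 10.3 FPKM in the other control and 4.69 FPKM with 4-OHT, a log2 fold of 4.11. Fcgr3, a receptor for immunoglobulin G, was at 12.6, 106, 12.03 and 20.4 FPKM, and Fcer1a, the receptor for immunoglobulin E, at 52.4, 342, 96.9 and 53.2 FPKM. The integrin gene Itga4 fell from 40.05 to 20.5 FPKM. Microglia and macrophage markers, which also include blood cell genes, summed to 32.2 FPKM in control and 61.8 FPKM with CBD.

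Outside these lists, Cyp11a1, the enzyme that opens steroid synthesis, had one of the highest folds, at 20.7 FPKM in control, 324 FPKM with CBD, 15.9 FPKM in the other control and 10.7 FPKM with 4-OHT (log2 fold 3.96). Lgals3 (galectin-3), which binds damaged lysosomes among other roles, was at 36.9, 263, 21.6 and 23.03 FPKM. Both were high in the CBD column alone. Among the 5922 expressed genes, the highest called fold outside the small RNAs belonged to Mtrnr2l, at 46.1 FPKM in control and 2448 FPKM with CBD. It resembles mitochondrial ribosomal RNA, so its reads cannot be placed with certainty.

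Transcription factors of blood cells fell in 12 of 29 cases and none rose (median −0.55, adjusted −0.40). Zfpm1 (FOG1), the partner of GATA1, stood at 54.9 FPKM in control, 16.5 FPKM with CBD, 63.8 FPKM in the other control and 45.5 FPKM with 4-OHT. Bcl11a was at 34.4, 12.2, 28.8 and 26.1 FPKM, and Runx3 at 16.5, 6.90, 18.2 and 17.1 FPKM. Tcf12, an E protein and so a partner of Id1, went from 40.5 to 20.4 FPKM, with 27.1 FPKM in the other control. Myb fell from 107 to 65.5 FPKM, with 112 FPKM in the other control. Runx1 fell from 92.6 to 47.4 FPKM, but the other control stood at 38.0 FPKM.

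Antigen presentation and interferon genes rose: 6 of 7 and 7 of 8 members, with none fallen and medians of 0.88 and 0.90. Over the other control the medians were 1.42 and 1.54, and with length adjusted 0.74 and 0.64. H2-T23, a non-classical class I gene, stood at 56.2 FPKM in control, 195 FPKM with CBD, 37.4 FPKM in the other control and 41.1 FPKM with 4-OHT. B2m, the light chain of class I molecules, was at 372, 792, 264 and 303 FPKM, and the peptide transporter gene Tap1 at 25.7, 48.6, 12.4 and 15.6 FPKM. Ifitm2, which blocks viral entry, was at 232, 639, 176 and 208 FPKM, and Isg15, an ubiquitin-like modifier, at 36.3, 78.0, 13.3 and 18.6 FPKM. In each the CBD value was the highest of the 4. Only 8 of 35 listed interferon genes belong to the expressed genes described here, so most of the listed response lies outside them.

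Cytokine signalling through JAK and STAT was mixed, with 5 of 18 genes risen (27.8%) and 3 fallen (16.7%). Pim2, a kinase that STAT5 induces, stood at 16.7 FPKM in control, 87.8 FPKM with CBD, 14.8 FPKM in the other control and 16.7 FPKM with 4-OHT. Socs1, which blocks the receptors' JAK kinases, was at 12.8, 36.6, 10.6 and 15.7 FPKM. Stat5a itself fell from 64.2 to 43.7 FPKM. Of 26 genes of ERK, PI3K and mTOR signalling 2 rose (7.69%) and 3 fell (11.5%), among them Mtor (11.3 to 6.10 FPKM). Over all expressed genes 11.4% rose and 14.9% fell. Of 40 cytoskeleton genes of actin and myosin 7 rose, 6 of them with shorter transcripts, and 11 fell, all with longer ones. Myh9, non-muscle myosin, went from 108 to 24.2 FPKM and Capg, a capping protein, from 75.1 to 186 FPKM.

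For the remaining lists the share of falls can be set beside the 14.9% of all expressed genes. Of 20 tRNA synthetase genes 3 fell (15%) and none rose (median −0.27). Of 25 genes of the TCA cycle 1 fell (4%) and none rose (median −0.20). Of 22 genes of one-carbon and amino acid metabolism 5 fell (22.7%) and none rose (median −0.08). Shmt1, the cytosolic enzyme that passes one-carbon units from serine to folate, fell from 35.2 to 14.2 FPKM, with 34.2 FPKM in the other control. Histone and linker genes gave 3 falls (27.3%) and 1 rise among 11, and their median of −0.35 was 0.19 over the other control. Among the 7 expressed blast identity genes 2 fell (28.6%) and none rose, and their median was −0.29 over the own and 0.32 over the other control. Lymphoid markers summed to 24.7 FPKM in control and 94.6 FPKM with CBD, nearly all of it Nkg7 (24.5 and 93.6 FPKM), a granule protein of cytotoxic cells, while Cd3e and Ms4a1 were listed at 0 in both. Stromal and endothelial markers summed to 4.34 and 10.2 FPKM. All lists together held 429 of the 1556 called genes, so most called genes lie outside them.

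The genes under 0.1 FPKM in both control columns form a separate layer. Of 9409 such genes 2211 had status OK, and all 2211 were higher with CBD. A gene at this level had to be higher with CBD to be tested, so the direction was fixed by the choice and is a description. By the deposited q 1143 rose, which is 45.1% of all rises in the table, and none fell. The level with CBD had a median of 1.02 FPKM, with 1124 genes at 1 FPKM or more and 99 at 10 FPKM or more, while 5 were at 1 FPKM or more with 4-OHT.

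The highest of the called genes in this layer, apart from small RNAs and predicted genes, are mostly known from brain. Ttr, the transthyretin of the choroid plexus, stood at 0.0986 FPKM in control and 68.7 FPKM with CBD. Ldhb, a lactate dehydrogenase subunit of wide expression, was at 0.0693 and 65.3 FPKM, Pcp4, a calmodulin regulator of neurons, at 0.0576 and 44.4 FPKM, and the synaptic gene Snap25 at 0.0697 and 36.7 FPKM. The next 6 were Sparcl1, Atp1b1, Cpe, Penk, Uchl1 and Ndn, between 35.9 and 23.7 FPKM with CBD. None of the 10 reached 0.1 FPKM in either control column or with 4-OHT. Small RNAs are part of this layer, with Snora19, Snord116 and Mir1906-1 at 702, 697 and 680 FPKM with CBD. With them included, the level with CBD summed over the 2211 genes was 10103 FPKM, beside 816849 FPKM over the 5922 expressed genes. The Y-linked genes Ddx3y, Eif2s3y and Uty belong to this layer. They stood at 0.573, 0.885 and 0.338 FPKM with CBD, and at 0.0179 FPKM or less in both control columns and with 4-OHT. Whether few cells or molecules of another source carry the transcripts of this layer, or many cells a little, was not tested. Pooled values do not show whether both CBD samples hold them.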

How the data were processed

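RNA (Qiagen RNeasy Plus mini, per the labels' protocols) from 6 samples was sequenced. Per the submitters' processing notes reads were aligned with Bowtie 0.12.2 to mm9 and compared with Cuffdiff, whose version and settings the sources used here do not give. The authors deposited 2 tables of 21881 genes, each with 1 FPKM value per group, a p-value and a q-value per gene. The tables were normalised separately, which affects levels set across them.

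Folds used a pseudocount of 0.1 FPKM, on a scale that understates changes of low genes. No count test could be run, because the files hold no counts or replicates. Calls are the deposited q-values under 0.05. Transcript lengths are of the longest GENCODE vM21 transcript, matched by symbol for 99.0% of genes; that build differs from mm9, so only lengths were used. The length trend is the median fold in 20 bins. Promoters are RefSeq entries. Scripts ran in Python 3.11.15 with pandas 2.3.3, numpy 2.4.6 and scipy 1.17.1 and were tested on simulated data.

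Genes were named by rule: Id1, the 15 highest and 15 lowest called folds beyond both controls, up to 4 called members per list in its leading direction and 1 in the other, the 5 most abundant, the 5 largest folds that turn over the other control, and the 10 highest called genes under 0.1 FPKM. Small RNAs, predicted genes and entries of several genes were passed over. Marker genes and the genes whose promoters are shown were added after their values were seen. The members and all 54 lists were chosen with earlier results of these data known. A few genes of the lists are not reported here by name.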

Additional observations from a re-analysis of the deposited data

How the results depend on the processing

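No paired analysis was possible because each column holds 1 pooled value per group, and for the same reason no sample could be left out in turn. The count of risen genes was 448 at a q threshold of 0.01, 224 with a fold of at least 2 and 2533 with no minimum level, and the count of fallen genes was 499 with a fold of at least 2. The counts stayed within 1.5 times of those reported under the other minimum levels tried and where genes also had to lie beyond the other control column, as did the count under 0.1 FPKM under its 6 alternatives. The median fold of the expressed genes moved by less than 0.31 under every alternative. Over the other control column, that of the 4-OHT comparison, 14 of 193 called genes that were named turned, with log2 folds of 0.32 for Runx1, −0.067 for Hbb-b2, 0.40 for Nars, 2.55 for Nupr1, 1.81 for Ppp1r15a, 0.059 for Aldh18a1, −1.22 for Hsph1, 0.039 for Scd1, −0.44 for Mrpl15, 0.19 for H1f0, 1.35 for Ier2, 0.36 for Krt80, 0.98 for Snhg1 and 0.022 for Glcci1. Of 47 list medians, 11 moved by more than 0.31 over that control. The median turned to 0.19 for histone genes, 1.13 for ATF4 and CHOP targets, 0.40 for immediate early genes, 0.32 for blast identity and −0.22 for the mitochondrial ribosome, and the 6 others kept their direction. At a minimum of 20 FPKM 4 list medians moved that far: mast cell genes to 1.36, the p53 pathway to 0.60, tubulin and centrosome to −0.44 and immediate early genes to −0.76. The cause was not tested. With the length trend removed 8 of 47 list medians moved by more than 0.31 and none turned among lists whose median was beyond that value; 664 of 665 risen and 857 of 881 fallen genes kept their sign. With the median in place of the longest transcript length, an alternative added after the data were seen, none of the 47 medians moved that far. Depth is unknown, so its limit on low values could not be given.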

Other observations

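Grouping the expressed genes by the letters that open their symbols, a view chosen after the data were seen, gave 43 families of at least 12 genes. The counts stand beside 11.4% risen and 14.9% fallen over all 5922 expressed genes, and no family was tested as a set. Kinesin genes (Kif) fell in 10 of 12 cases and none rose, with a median log2 fold of −1.92, and −1.76 with length adjusted. RNA-binding motif genes (Rbm) fell in 10 of 25 cases and none rose, at a median of −0.48. Genes of the DEAH helicases (Dhx) fell in 5 of 12 cases with none risen, and zinc finger genes (Zfp) in 10 of 49 with none risen. Deubiquitinases named Usp fell in 9 of 27 cases with none risen, but their median of −0.29 was −0.04 with length adjusted.

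Some families of membranes and vesicles had more rises than falls, and others did not. Here too the shares over all expressed genes were 11.4% risen and 14.9% fallen. Transmembrane genes named Tmem rose in 21 of 72 cases and fell in 2, at a median of 0.45 (0.34 with length adjusted). Rab GTPases, which direct vesicles, rose in 7 of 28 cases and none fell, at a median of 0.34, and 0.47 over the other control column. The related Arl GTPases rose in 3 of 13 cases with none fallen. Genes named Sec rose in 7 of 17 cases and 1 fell. Vps sorting genes rose in 2 of 24 cases and fell in 3, and solute carriers (Slc) rose in 10 of 74 and fell in 3, at a median of 0.05. Small nucleolar RNA genes differed by class: 25 Snord genes had a median of −1.22 and 17 Snora genes a median of 1.01, with 2 and 0 risen by the deposited q and none fallen, and 14 of the expressed genes, all small RNAs, were listed at 0 with CBD without a call.

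Among genes that passed the minimum level but were not tested, Nolc1, a nucleolar phosphoprotein, was listed at 73.2 FPKM in control, 19.8 FPKM with CBD, 135 FPKM in the other control and 121 FPKM with 4-OHT. Uhrf1, which guides Dnmt1 to new DNA, was listed at 91.5, 27.5, 101 and 109 FPKM. Their status was FAIL, and no call can be given. Lars2 was listed at 702 FPKM in control, at 0 with CBD and at 1166 FPKM in the other control, with the status HIDATA, which Cuffdiff gives to loci with too many fragments.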
